A study of Caenorhabditis elegans with 2 samples.

Results

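The region described here is the neighbourhood of unc-86, the gene whose protein was immunoprecipitated. UNC-86 is a POU homeodomain transcription factor that C. elegans uses to give several classes of neurons their identity, the touch receptor neurons among them. POU factors bind DNA through a POU-specific domain joined to a homeodomain. Factors that fix a neuron's identity commonly bind their own gene and thereby keep it expressed. The label under which the region was chosen calls it autoregulatory. Expression was not measured in these data, so whether any peak here regulates unc-86 was not tested.

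The samples were 2 biological replicates of 1 group, with no other condition: whole hermaphrodites of strain OP476, genotype unc-119(tm4063) III with the integrated transgene wgIs476, at the L1 larval stage. They were taken 6 hours after synchronization, which was done by bleaching and starving the larvae. The transgene expresses UNC-86 with a tag at its C terminus that the labels give as eGFP and as GFP-FLAG, and the sample descriptions name an antibody to GFP. The antibody field of the labels names unc-86 instead. GFP was taken as the antibody's target, and if it was UNC-86 itself, the untagged protein would have been precipitated too. Both replicates carry the unc-119 mutation and the transgene. The labels give neither the ends of the unc-86 sequence in the transgene nor its copy number, so in these lists a peak at the chromosomal gene and the same sequence carried by wgIs476 cannot be told apart. Whole animals were used, so a peak cannot be assigned to a cell type.

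The measurements were lists of peaks, regions called from immunoprecipitated DNA against a control, each with a summit and the authors' signal value. That value, the authors' own, serves here only to describe and order peaks within a list, and its scale is unknown. Read depth is unknown, and no control sample was analysed here. The optimal list, which passed the authors' irreproducible discovery rate (IDR) step, held 2987 peaks. The pooled list, called on both replicates together and deliberately permissive, held 20768, and the permissive lists of replicate 1 and replicate 2 held 29587 and 25172. The authors' name for the pooled list is peaks and background as input for IDR. A peak found only in a permissive list can thus be background. Members were all peaks with a summit within 20 kb of unc-86, on chromosome III from 8192740 to 8236336 in the ce11 build. These came to 12 peaks of the optimal list, 33 of the pooled list, 33 of replicate 1 and 36 of replicate 2. With 1 group of 2 replicates there was no contrast to test, so values are given for each replicate beside the same share over all peaks.

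The unc-86 gene (WBGene00006818) runs from 8212740 to 8216336 on the minus strand, so upstream lies at higher coordinates. Its annotation has 2 transcripts. The longer, C30A5.7b.1, starts at 8216336 and has 6 exons. The shorter, C30A5.7a.1, starts at 8214653 and has 5. The 12 optimal peaks are called P1 to P12 in the order of their coordinates, and distances are from the 5' end of the longer transcript unless another end is named. The promoter of each transcript was set as 1500 bp before its 5' end and 500 bp after it, and summits there counted as promoter peaks. By that rule 3 peaks were at the promoters (P3 to P5), 7 were further upstream (P6 to P12) and 2 were downstream of the gene (P1 and P2). The strongest 2987 peaks of each replicate taken alone gave the same counts of 3, 7 and 2.

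The sequences shown are those at the summits of the 3 promoter peaks, of P8 and P9 further upstream, and of P2 and P10, the strongest peaks of the locus. Each is 151 bases centred on the summit, from the plus strand of WBcel235 (ce11) as given by RefSeq. Capitals mark TAATTA, a homeodomain core and the only match in these 7 windows to the 6 sequences searched.
P2, 996 bp past the 3' end of unc-86, chrIII:8211669-8211819: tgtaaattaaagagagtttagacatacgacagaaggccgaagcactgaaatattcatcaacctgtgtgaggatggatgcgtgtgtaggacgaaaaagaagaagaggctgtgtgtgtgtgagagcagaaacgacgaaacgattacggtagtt
P3, intron 1 of the longer transcript, chrIII:8215070-8215220: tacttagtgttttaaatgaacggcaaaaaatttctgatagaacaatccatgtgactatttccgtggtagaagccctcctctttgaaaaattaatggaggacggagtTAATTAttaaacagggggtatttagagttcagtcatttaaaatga
P4, 83 bp upstream, chrIII:8216344-8216494: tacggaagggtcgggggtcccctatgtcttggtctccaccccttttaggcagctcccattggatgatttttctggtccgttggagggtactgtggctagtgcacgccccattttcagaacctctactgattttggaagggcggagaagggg
P5, 1117 bp upstream, chrIII:8217378-8217528: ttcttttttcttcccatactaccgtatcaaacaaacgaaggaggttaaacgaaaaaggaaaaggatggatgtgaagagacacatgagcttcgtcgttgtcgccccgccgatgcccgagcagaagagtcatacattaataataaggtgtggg
P8, 3910 bp upstream, chrIII:8220171-8220321: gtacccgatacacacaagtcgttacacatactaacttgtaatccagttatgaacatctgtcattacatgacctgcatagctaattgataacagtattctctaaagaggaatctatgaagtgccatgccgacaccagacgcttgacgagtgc
P9, 4936 bp upstream, chrIII:8221197-8221347: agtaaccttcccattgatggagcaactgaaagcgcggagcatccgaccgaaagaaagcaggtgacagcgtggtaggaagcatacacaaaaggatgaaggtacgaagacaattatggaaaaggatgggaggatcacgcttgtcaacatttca
P10, 11406 bp upstream, chrIII:8227667-8227817: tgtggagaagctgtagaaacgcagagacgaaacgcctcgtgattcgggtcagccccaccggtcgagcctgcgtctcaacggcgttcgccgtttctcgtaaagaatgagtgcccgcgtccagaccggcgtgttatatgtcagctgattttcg

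A row of 7 peaks, P3 to P9, began inside the gene and ran 6127 bp to 4936 bp upstream of it. Neighbouring summits in this row were 897 to 1274 bp apart, with a median of 1012 bp, whereas the median distance between neighbouring optimal summits over all chromosomes was 17648 bp. With gaps of at most 2 kb, no other of the 2620 runs in the optimal list held as many as 7 summits. With gaps of at most 3 kb, 1 other of 2456 runs did. The signals in the row were highest at P5 (356) and P4 (305), and lowest at P9, the outermost. They did not fall steadily with distance from the 5' end. P8 had 234, above P6 with 205 and P7 with 191, and P3 inside the gene had 147.

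At the 5' end of the longer transcript, P4 (8216241 to 8216661, summit 83 bp upstream) had signal values of 151.5 in replicate 1 and 148 in replicate 2, and ranked 411 in the optimal list with 305. Its summit was also 39 bp upstream of C30A5.11, a non-coding RNA gene on the opposite strand. Inside unc-86, non-coding RNA genes named C30A5.13 are annotated on both strands. P4 was 289 bp upstream of the minus-strand one and in the promoter window of the other. P5 (8217269 to 8217606, summit 1117 bp upstream) had 156 and 189, and ranked 311 with 356. It was the strongest peak of the row in both replicates. Its summit was also 766 bp upstream of C30A5.16, a protein-coding gene on the opposite strand, and 1323 bp upstream of the minus-strand C30A5.13.

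P3 (8214947 to 8215342) lay inside unc-86, in intron 1 of the longer transcript and 492 bp upstream of the 5' end of the shorter one. It was also 842 bp upstream of the plus-strand C30A5.13 and 1313 bp upstream of C30A5.11. It had 76.1 in replicate 1 and 64.4 in replicate 2, and ranked 1236 in the optimal list with 147. Only P9 and P11 had lower optimal signals in the locus. P3 thus counts as a promoter peak only through the shorter transcript. With the 5' end of the longer transcript alone, a setting added after seeing the data, it is the only gene body peak and 2 promoter peaks remain. No optimal summit lay in the rest of the gene, between the 5' end of the shorter transcript and the 3' end. The pooled list had 2 summits counted as gene body.

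Further upstream the row went on with P6 (2016 bp), P7 (3013 bp), P8 (3910 bp) and P9 (4936 bp). P6 had 76.4 in replicate 1 and 136 in replicate 2, and lay in an exon of C30A5.16. The summit of P6 was also in the promoter window of that gene. P7 had 83.8 and 111. P8 had 109 and 124. P9 had 37.6 and 49.4, and its signal of 88.2 in the optimal list (rank 2259) was the lowest of the 12. P7 to P9 lay between genes, although P9 was also 954 bp upstream of a pseudogene (WBGene00016239).

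The far upstream peaks, P10 to P12, lay 11406, 12303 and 13368 bp from unc-86, inside rfs-1 and at fbxl-1. rfs-1 encodes a paralogue of the recombinase RAD-51, and fbxl-1 an F-box protein with leucine-rich repeats. P10 had 229 in replicate 1 and 296 in replicate 2, with 534 in the optimal list (rank 128). Its summit was 88 bp upstream of the outermost fbxl-1 5' end and 121 bp upstream of C02F5.15, a gene for a small nucleolar RNA. P12 had 185 and 188, with 376.5 in the optimal list (rank 271), and was 80 bp upstream of the 5' end of another fbxl-1 transcript. Between them P11 was weaker, with 51.0 in each replicate. All 3 summits were in intron 4 of rfs-1, so the peaks nearest to fbxl-1 5' ends and those inside rfs-1 are the same peaks.

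Downstream of unc-86 there were only P1 and P2, and P2 was the strongest peak of the locus. P2 (8211572 to 8211984) lay 996 bp past the 3' end of unc-86 and inside C30A5.15, an annotated non-coding RNA gene on the plus strand. It had 241 in replicate 1 (rank 122) and 352 in replicate 2 (rank 75), and ranked 87 in the optimal list with 602. P1 had 59.1 and 92.5, with 151 in the optimal list. It lay 663 bp upstream of unc-36, which encodes the alpha-2/delta subunit of voltage-gated calcium channels, and 1174 bp upstream of snb-5, a gene of the synaptobrevin family that runs the other way. P1 was also inside the non-coding gene C50C3.15.

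**Figure D1:**
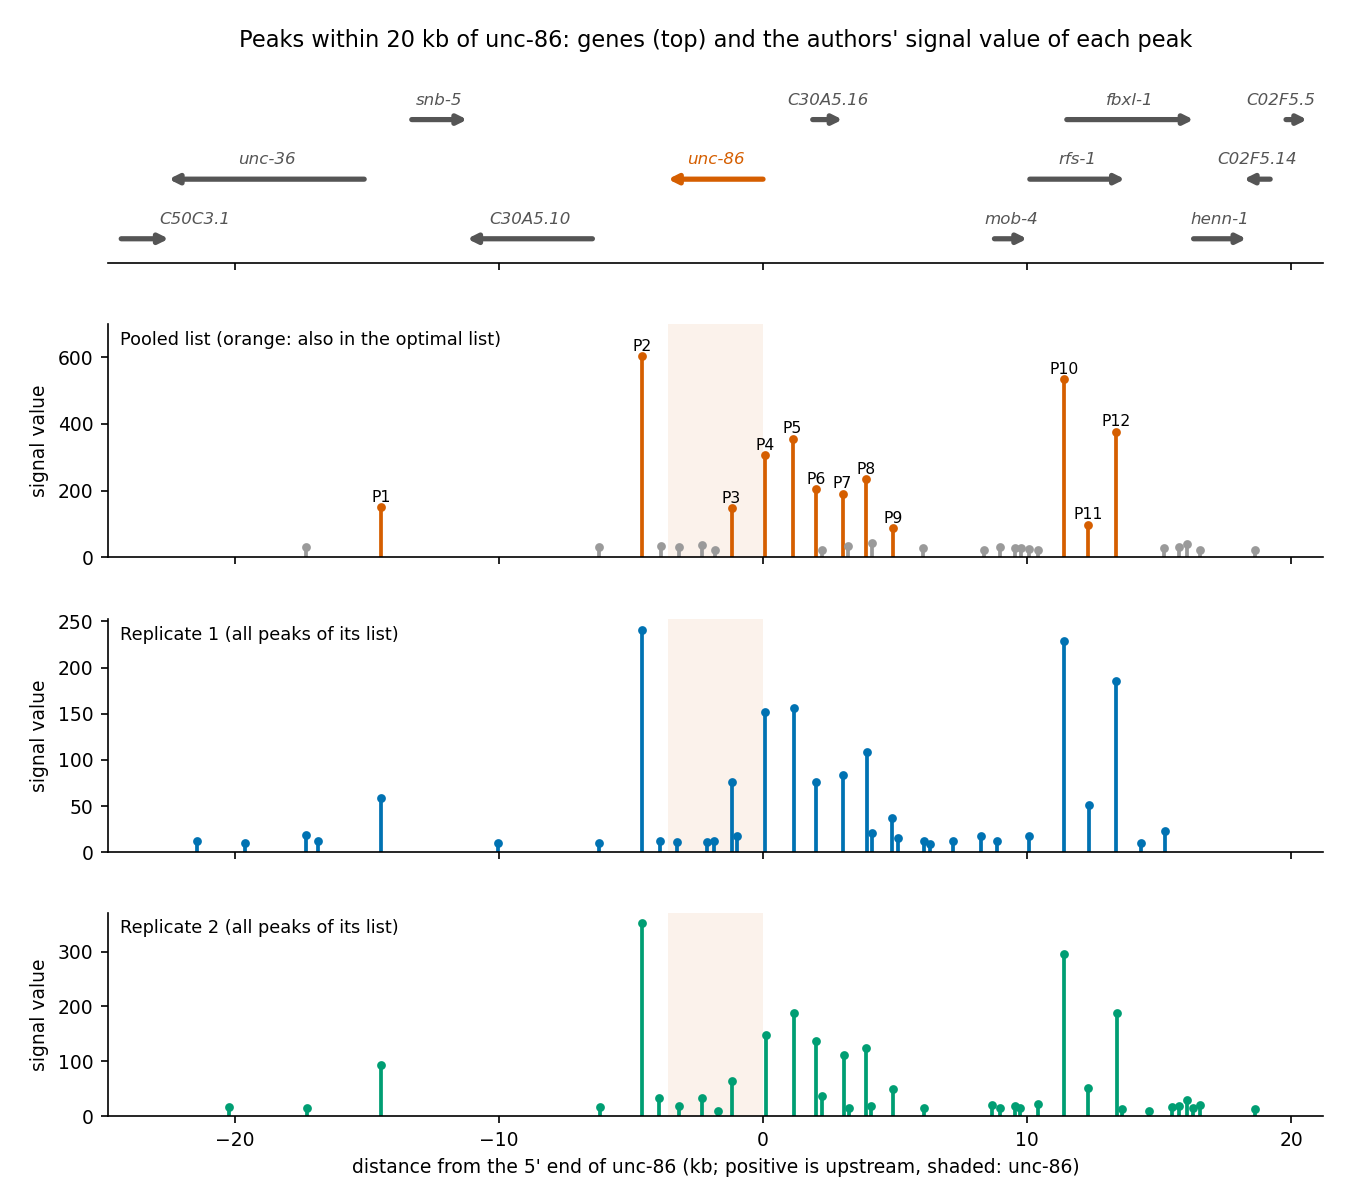
Position of each peak (x axis, kb from the 5' end of unc-86, upstream positive) against the authors' signal value (y axis, a scale of its own in each list), under arrows for the protein-coding genes. The 12 optimal peaks (orange, P1 to P12) stand at the same places in both replicates, with P2 the highest in each, and grey stems are the 21 pooled peaks outside the optimal list.

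The replicates placed these peaks at nearly the same bases and in nearly the same order. All 12 had an overlapping peak in each replicate's top 2987, against 84.2% of all optimal peaks. The summits of the 2 replicates were at most 52 bp apart, and within 50 bp at 11 of the 12, against 84.3% of all optimal peaks. P2 was the strongest and P10 the next in both replicates, and P9 was the weakest in both. Signal values in replicate 2 were 1.26 times those in replicate 1 at the median optimal peak. Relative to that median, the locus peaks ranged from -0.58 (P3) to 0.50 (P6) on the log2 scale, and none of them differed by over 2 fold, against 3.31% of all optimal peaks. Against that median, 6 of the 12 were relatively higher in replicate 2 and 6 relatively lower. Spearman's rho between replicates over the 12 peaks was 0.965, a description of 12 regions that share libraries. The optimal list was made from these same replicates, so its peaks may have been kept in part for that likeness. With 50% reciprocal overlap required, 10 of the 12 were found in both replicates, against 72% of all optimal peaks. With only the strongest 1500 peaks of each replicate, 9 were, against 45%. These shares over all optimal peaks were not matched for signal, and 10 of the 12 locus peaks were above the median signal of the optimal list.

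**Figure D2:**
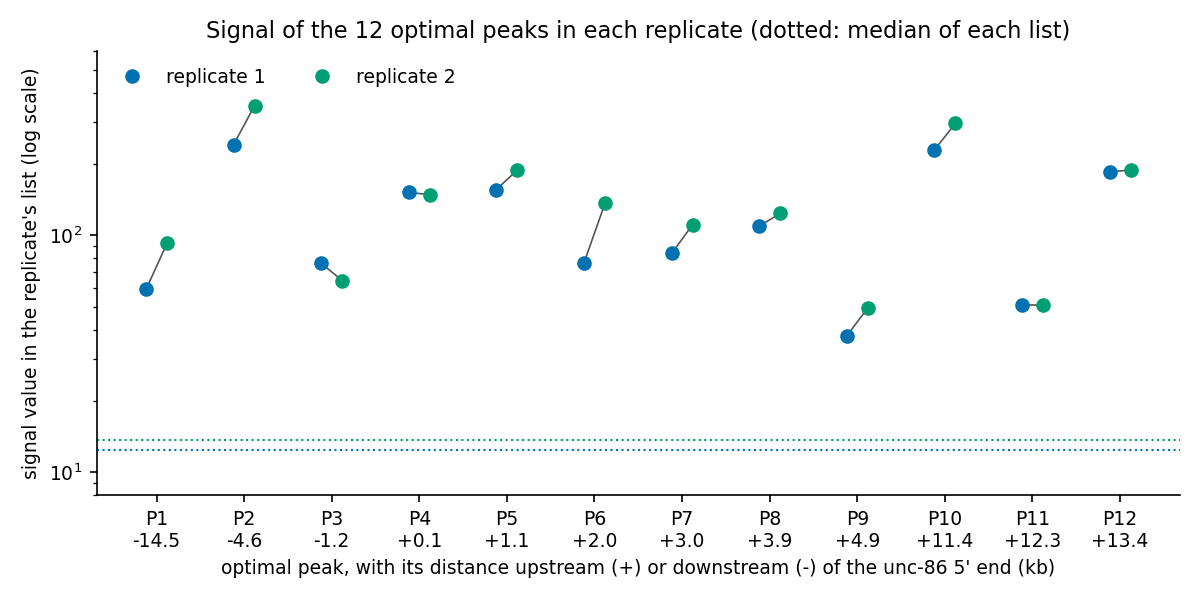
Signal value of each optimal peak (y axis, log scale) in replicate 1 (blue) and replicate 2 (green), with the distance of each peak from the unc-86 5' end on the x axis in kb, and the median of each replicate's list as a dotted line. Both replicates lie above their list medians of 12.5 and 13.7 at every peak, and the 2 points of a peak lie close to each other. Those medians are of the permissive lists, so optimal peaks lie above them by the way they were selected.

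As a group the locus peaks were stronger than the optimal list as a whole, without reaching its top. Their median signal was 219, against 127 in the list, and 10 of the 12 were above that list median, all but P9 and P11. Among the 298 strongest peaks of the list were 3 of them (P2, P10 and P12), against 9.98% of all optimal peaks. The highest signal in the optimal list was 1708.

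Optimal peaks were denser here than in any window of the same size tiled over the rest of the genome. With all nuclear chromosomes divided end to end into 2297 windows of 43.6 kb, the median window held 1 optimal peak. The only window with 12 was one overlapping the unc-86 locus, and the most elsewhere was 9. These windows have fixed ends and can split a group of peaks. A window of 42.3 kb centred on rtcb-1, on chromosome I, held 10. In the pooled list the 33 peaks at unc-86 were also the most, although 2 windows elsewhere had 32 and the median was 8. In the permissive lists of single replicates the locus did not lead. It had 33 peaks in replicate 1, against 35 in 1 window elsewhere, and 36 in replicate 2, against 38 in 1 window elsewhere. Of the 33 pooled peaks 12 were in the optimal list, against 14.4% of all pooled peaks. The optimal list is the upper part of the pooled one, so these counts rest on the same signals.

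**Figure D3:**
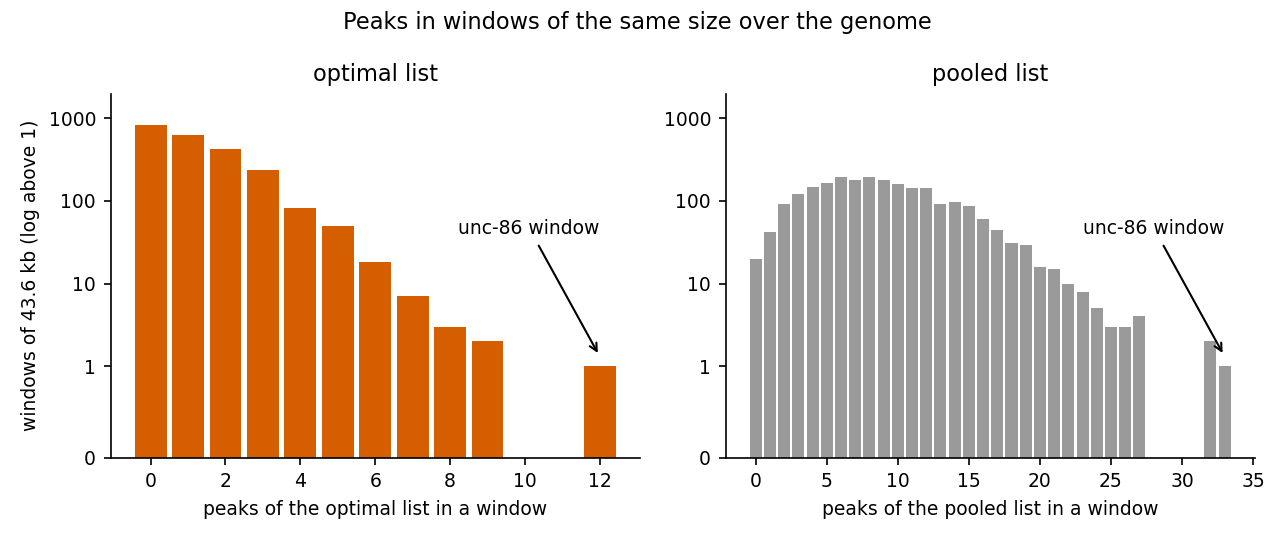
Number of windows of 43.6 kb (y axis, log above 1) by the number of peaks each holds (x axis), for the optimal list (left) and the pooled list (right). The window overlapping the unc-86 locus stands alone at 12 optimal peaks, with the next at 9, and at 33 pooled peaks, with the next at 32.

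Peaks were not spread evenly over the window. In bins of 5 kb counted from the unc-86 5' end, the bin just upstream held 6 optimal and 9 pooled peaks. From 5 kb downstream to 20 kb upstream, each bin held 5 to 9 pooled peaks. In the 31 bins from 25 to 100 kb downstream and from 20 to 100 kb upstream the mean was 1.26 pooled peaks and the most was 4, and all 20044 bins of the nuclear chromosomes had a mean of 1.04. Pooled summits followed each other with gaps of at most 3 kb from 8210134 to 8234957, a stretch of 24.8 kb with 31 peaks. By length it ranked 6 among the 9261 such stretches of the pooled list. On either side of it no pooled summit lay within 8254 bp downstream or 8333 bp upstream. Replicate 2 alone gave a stretch of 24.8 kb and replicate 1 alone one of 21.4 kb, which ended at 8231555 on the upstream side. By length they ranked 14 and 28 in their lists. With gaps of at most 2 kb the pooled stretch was 12.3 kb and ranked 18 of 11682. With gaps of at most 5 kb the pooled stretch was again 24.8 kb, but it ranked only 116 of 6228. How far the dense stretch matches the unc-86 sequence in wgIs476 was not tested.

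**Figure D4:**
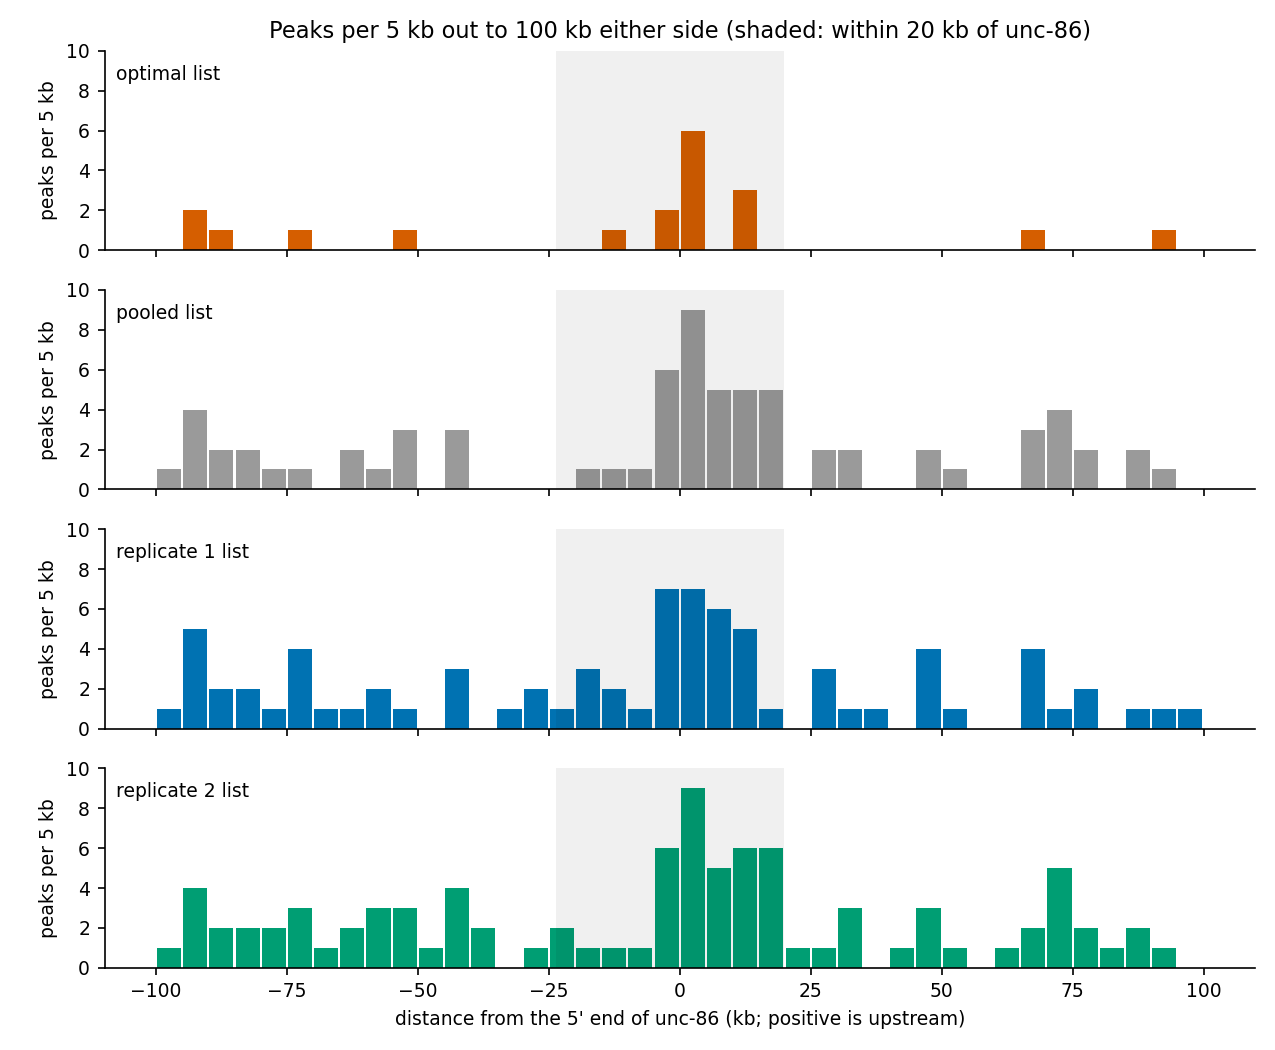
Peaks per 5 kb (y axis) by distance from the unc-86 5' end (x axis, kb, upstream positive) in each of the 4 lists, with the region within 20 kb shaded. The pooled list has 5 to 9 peaks per bin from 5 kb downstream to 20 kb upstream, and at most 4 per bin outside the shaded region.

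The 21 pooled peaks here that were not optimal had signals from 21.0 to 44.2, below the lowest optimal signal of 66.4. Their lower signals follow from the optimal list being the upper part of the pooled one. Their −log10 q values began at 0.0541 and all were lower than the 3.79 of the 12 optimal peaks. Peaks of replicate 1 overlapped 16 of the 21, against 78.8% of all pooled peaks outside the optimal list. Peaks of replicate 2 overlapped all 21, against 75.5%. Of the 21, 12 lay more than 5 kb upstream. The strongest of them had its summit at 8220447, on the upstream side of P8.

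Other genes in the window differed in how many peaks they had at hand. Of 12 protein-coding genes that touch the window, 6 had an optimal summit inside them or in their promoter windows: unc-86, unc-36, snb-5, C30A5.16, rfs-1 and fbxl-1. None was found for mob-4, a MOB family kinase activator, or for henn-1, a methyltransferase of small RNAs. unc-86 itself had 3 optimal summits in its gene and promoter windows, and 68 of 19973 protein-coding genes (0.34%) had as many or more, while 17086 had none. In a window of 20 kb either side, no protein-coding gene had more optimal summits than the 12 of unc-86, and the 3 genes with 12 all lay inside its window. The median gene had 1. The median signal around unc-86 was 219. The most similar surroundings elsewhere were those of rtcb-1 (a tRNA ligase) on chromosome I with 10 summits and a median signal of 245. Next came daf-5, a dauer regulator of the Sno/Ski family, on chromosome II with 9 (median 179), hoe-1, a tRNA-processing nuclease, on chromosome IV with 9 (150.5), lron-3 on chromosome X with 9 (71.35) and glrx-10, a glutaredoxin, on chromosome I with 8 (223). Of these 5 genes only daf-5, hoe-1 and lron-3 had an optimal summit in their own promoter windows.

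Of 6 short sequences searched on both strands, 2 were found within 75 bp of a locus summit. AATGCAT, which UNC-86 binds together with its LIM homeodomain partner MEC-3, and its core ATGCAT lay within 75 bp of none of the 12 summits, against 3.05% and 5.16% of all optimal summits. The POU octamer ATGCAAAT was at none (1.24% of all), and the E box CACGTG at none (4.55%). TAATTA was at P3 alone, centred 33.5 bp from the summit (4.52% of all). GAGAGA, which reads into longer GA repeats at P1, was at P1 and P11, against 36.3% of all optimal summits. AATGCAT contains ATGCAT, so those 2 searches overlap. No match means only that these letters are not in these windows.

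Within the wider window AATGCAT occurred at 4 places, of which 2 lay near peaks of the row. Both are shown with 20 bases on either side, plus strand of WBcel235, and the match in capitals.
Site 355 bp upstream of unc-86, chrIII:8216671-8216718: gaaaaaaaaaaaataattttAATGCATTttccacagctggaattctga
Site 4065 bp upstream of unc-86, chrIII:8220381-8220427: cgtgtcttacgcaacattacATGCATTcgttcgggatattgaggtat
The site nearer to unc-86 reads AATGCAT on both strands, and it lay 275 bp from the summit of P4 and 30 bp outside that peak. No peak of the pooled or replicate lists covered it. The other lay 158 bp from the summit of P8. It was inside the weak pooled peak next to P8 (signal 44.2), inside the P8 peak of replicate 1 (109) and inside a weak peak of replicate 2 (18.7). The other places were in intron 6 of unc-36 and in an exon of henn-1, 3223 bp from the summit of P1 and 4719 bp from that of P12. Windows of the same size over the genome held a median of 6 such places, and 1950 of 2297 held 4 or more. The octamer ATGCAAAT was also at 4 places in the window, the nearest 1696 bp from an optimal summit, with a median of 4 over the genome.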

How the data were processed

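UNC-86 binding was measured by ChIP-seq in 2 biological replicates of 1 group. Per the deposited listing, the authors called a permissive list on every replicate against a control, another on the 2 replicates pooled, and selected the optimal list by IDR. For the aligner, the peak caller and the threshold of IDR, names or values were not given in the sources used here. Each peak has the authors' deposited signal value, of unknown scaling, and a deposited −log10 q value. Replicate signals were compared as ratios set against the median ratio over all optimal peaks. The q values are equal at all optimal peaks and were not used to rank. Depth is unknown.

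Summits were the deposited offset plus the start, given 1-based on ce11. They were set against WBcel235 with the Ensembl release 115 annotation, and 0 peaks ended past a chromosome's end. Lists on the older ce10 build served only to set a list length. Replicate peaks were matched by an overlap of 1 bp, motifs were searched within 75 bp of summits, and windows of 43.6 kb were tiled over the nuclear chromosomes. Python 3.11.15, numpy 2.4.6, pandas 2.3.3 and matplotlib 3.10.9 were used. Of the steps, only peak matching, the distance to a 5' end and the sequence search were checked on simulated data. With 1 group and no control file analysed, no test was made. Alternatives changed the flank, promoter window, overlap rule, list length, gap, motif window and replicate used. Genes named are unc-86, genes within 20 kb with an optimal summit in them or their promoter window, and up to 5 protein-coding genes elsewhere nearest in number of optimal summits. mob-4 and henn-1 were named after their values were seen. The region, lists and sequences were chosen with earlier results of these data known.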

Additional observations from a re-analysis of the deposited data

How the results depend on the processing

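The count of 12 optimal peaks was 8 within 10 kb, 12 within 40 kb and 12 in either replicate alone. All counts by position stayed within 1.5 times of those reported except the gene body count, which was 1 with the longest transcript alone (added after seeing the data). The pooled stretch of 24.8 kb was 12.3 kb with gaps of at most 2 kb, and 21.4 to 24.8 kb with 1 replicate left out. Within 30 bp of summits TAATTA was at 0 peaks, and within 150 bp GAGAGA was at 4. Genes with as many peaks as unc-86 or more numbered 3 with 20 kb, 7 with 10 kb and 30 with 40 kb either side. The last 2 settings were chosen after seeing the data. Counts and ranks within 1.5 times of the reported value, and lengths within 1 SD of the 2 replicates' lengths, were taken as close, which 48 alternatives were and 7 were not. Exactly 1.5 times was taken as close (8 peaks within 10 kb, and 2 promoter peaks with a narrower window or the longest transcript alone). The cause was not tested. No paired analysis was possible because there was 1 group. Unknown depth limits what the absence of a peak shows.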

Other observations

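The 9-base word ACAGCTTCT, on either strand, was in the summit windows of 3 locus peaks (P1, P6 and P10). Among all 2987 optimal windows it was in 6, or 0.201%. It was picked after looking at 1673 words shared among these windows, so it is a description of these 3 sequences only. The GC content of the 12 locus windows had a median of 43.7%, against 45.0% over all optimal windows.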
